A study of Mus musculus with 9 samples.

Results

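The genes examined here build, read or remove methylation on lysine 9 of histone H3 (H3K9), or recruit that machinery through KAP1. The 10 members were taken by name: the H3K9 methyltransferases Setdb1, Ehmt1, Ehmt2, Suv39h1 and Suv39h2, the corepressor Trim28 (KAP1), the zinc finger protein Zfp57, the demethylases Kdm3a and Kdm4c, and Cbx5 (HP1 alpha). Each had 1 row among the 38293 genes of the count table. Expression was measured by poly-A RNA-seq in E14, a mouse embryonic stem cell line of the 129/Ola strain, in 3 culture states with 3 biological replicates each. mESC-2i were kept in serum-free N2B27 with 10 ng/mL LIF, 1 µM of the MEK inhibitor PD0325901 and 3 µM of the GSK3 inhibitor CHIR99021. mESC-ser were kept on gelatin in 15% foetal bovine serum with 10 ng/mL LIF. EpiLC were made from the naive state on fibronectin with 20 ng/mL activin A, 12 ng/mL bFGF and 1% KSR. The groups share 1 cell line, so replicates speak for cultures of E14 and not for other lines. The comparisons ask how these genes differ between the naive state, the serum state that the study calls primed, and EpiLC.

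H3K9 methylation marks silent chromatin. SETDB1 is brought to DNA by KAP1, which itself binds the KRAB domain of zinc finger proteins, and this route silences retroelements in embryonic stem cells. ZFP57 is one such protein and guards imprinted regions against loss of DNA methylation. EHMT1 (GLP) and EHMT2 (G9a) work as a heterodimer that places dimethylation, mostly in euchromatin, whereas SUV39H1 and SUV39H2 place trimethylation at pericentromeric repeats, where HP1 proteins bind it. KDM3A removes mono- and dimethylation and KDM4C removes trimethylation.

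The start regions of 4 members are shown because these genes had contrasting patterns: Kdm3a had the widest range of levels, Suv39h1 rose in both comparisons with mESC-2i while its paralog Suv39h2 was not called, and Zfp57 fell in EpiLC. Each run is 300 bases from RefSeq (build GRCm38.p6), from 250 bases before to 50 bases after the first start listed for the gene, 5′ to 3′, with CG dinucleotides in capitals.
Kdm3a (chr6:71632868-71633167, minus strand): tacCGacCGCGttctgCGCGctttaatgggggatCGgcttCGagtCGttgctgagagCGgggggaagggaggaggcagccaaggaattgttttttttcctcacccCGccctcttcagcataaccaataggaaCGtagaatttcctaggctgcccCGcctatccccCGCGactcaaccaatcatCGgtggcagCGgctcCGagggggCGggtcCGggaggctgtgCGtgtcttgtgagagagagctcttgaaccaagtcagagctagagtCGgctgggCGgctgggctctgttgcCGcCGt
Zfp57 (chr17:37003416-37003715, plus strand): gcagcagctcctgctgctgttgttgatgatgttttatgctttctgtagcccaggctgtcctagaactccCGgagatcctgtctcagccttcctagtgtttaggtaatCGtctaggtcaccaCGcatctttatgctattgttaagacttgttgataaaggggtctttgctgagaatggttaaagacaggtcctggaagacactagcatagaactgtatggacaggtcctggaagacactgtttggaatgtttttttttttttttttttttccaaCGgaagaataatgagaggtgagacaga
Suv39h1 (chrX:8074711-8075010, minus strand): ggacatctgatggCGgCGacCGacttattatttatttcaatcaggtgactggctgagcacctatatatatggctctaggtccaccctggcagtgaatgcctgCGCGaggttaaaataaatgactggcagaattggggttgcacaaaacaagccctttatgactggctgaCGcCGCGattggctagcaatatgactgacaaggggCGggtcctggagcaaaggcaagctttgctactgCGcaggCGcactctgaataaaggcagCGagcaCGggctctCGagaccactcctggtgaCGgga
Suv39h2 (chr2:3474937-3475236, minus strand): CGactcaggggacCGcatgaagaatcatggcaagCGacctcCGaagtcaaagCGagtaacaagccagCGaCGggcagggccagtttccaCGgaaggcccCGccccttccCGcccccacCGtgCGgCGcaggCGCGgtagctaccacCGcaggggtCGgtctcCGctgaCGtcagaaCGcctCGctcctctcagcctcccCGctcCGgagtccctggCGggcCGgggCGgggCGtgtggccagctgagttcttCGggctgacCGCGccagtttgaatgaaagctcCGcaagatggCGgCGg
These windows held 24 CG dinucleotides in Kdm3a, 4 in Zfp57, 15 in Suv39h1 and 33 in Suv39h2, where the median over 27025 promoters of the same length was 7. The paralogs Suv39h1 and Suv39h2 thus differed in CG content, although a second listed start of Suv39h1 had 37. The 3 listed starts of Zfp57 held 4 to 9. The window shown for Zfp57 is the most downstream of the 3 and lies inside the gene, which starts at 37001163. Over the first listed starts of the 10 members, GGGCGG (the GC box, either strand) was found in 8, against 35.9% of all promoters, and CCAAT in 4, against 37.9%. CACGTG was found in 2 members (7.24% of all promoters). TGCCGC, the hexamer that ZFP57 binds when methylated, was found in Trim28 and Kdm3a (11.6% of all promoters), and TTCNNNGAA, the motif of STAT factors, in none (8.47%). A match is a description of the letters only. Of the motifs searched, the GC box, CACGTG and the ZFP57 hexamer contain a CG.

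Library totals ranged from 7187576 to 16829549 counts. Naive markers summed to 3400 to 3490 CPM (TMM-scaled counts relative to library size) in mESC-2i, 1770 to 1890 for mESC-ser and 103 to 117 for EpiLC. Formative markers summed to 88.1 to 100, 773 to 924 and 2220 to 2280 CPM, so the order of these sums followed the labels. Within the naive list Zfp42 was higher in mESC-ser (mean of 349 CPM) than in mESC-2i (297 CPM). Of the core pluripotency markers, Sox2 had means of 473, 504 and 61.7 CPM in mESC-2i, mESC-ser and EpiLC. Pou5f1 was at 882, 781 and 1010 CPM and Sall4 at 189, 496 and 192 CPM. Fibroblast markers summed to 31.0 to 77.4 CPM over the libraries and primitive endoderm markers to 1.26 to 13.8 CPM, with no defining marker at 0. Within the fibroblast list Col1a1, Col1a2 and Col3a1 were lowest in EpiLC (means of 1.48, 2.94 and 0.182 CPM), whereas Thy1 was highest there (29.5 CPM). Trophectoderm markers summed to 93.5 to 102 CPM in mESC-2i, 41.9 to 51.6 for mESC-ser and 10.8 to 11.7 for EpiLC, where Elf5 was at 0. Two-cell-like markers summed to 0.505 to 0.751 CPM in mESC-2i, where Tcstv1 was at 0, 70.6 to 106 for mESC-ser and 9.17 to 12.5 for EpiLC. The part of these cells in the results was not tested, and in bulk RNA fewer cells of a type and less RNA per cell cannot be told apart. Fold changes also followed transcript length. In EpiLC against mESC-ser the median log2 fold change of protein-coding genes was 0.95 among the shortest 3230 genes (204 to 2778 bp) and -0.99 among the longest 3230 (from 6844 bp). The corresponding bins held 0.55 and -0.65 for EpiLC against mESC-2i, and -0.35 and 0.40 for mESC-ser against mESC-2i. Replicate 3 of mESC-2i stood apart from replicate 2 (chi-square per degree of freedom 30.5, where the pairs within a group ranged from 1.66), and results that turn on it are given without it. Replicate 3 of mESC-ser also stood apart from replicates 1 and 2 of its group (11.8 and 12), which were at 1.66 from each other. The members have exonic lengths of 3786 to 9006 bp, so values from a second fit with offsets for length and GC content are given beside those of the main fit. In that second fit the offsets took the place of the TMM factors, so the library scaling differed too.

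Calls required an adjusted p (Benjamini-Hochberg) under 0.05 in the edgeR quasi-likelihood test and an absolute log2 fold change over 0.5. In mESC-ser against mESC-2i, 6 of the 10 members were called, all 6 higher. Of the 15728 genes tested there, 56.2% were called, 25.9% in the higher and 30.3% in the lower direction. The 10 members were tested in each comparison. In EpiLC against mESC-2i, 7 were called, 4 higher and 3 lower, against a background of 69.8% called, 32.0% higher and 37.8% lower. Of the calls in that comparison 45.9% were higher, and 33.7% with total-count scaling and 53.8% with the length and GC offsets. In EpiLC against mESC-ser, 7 were called, 1 higher and 6 lower, against 73.3% called, 35.5% higher and 37.8% lower. Of these calls 48.4% were higher, and 37.4% with total-count scaling and 53.4% with the offsets. The members split into 7 higher and 0 lower, 6 higher and 3 lower, and 2 higher and 4 lower with the offsets, and into 6 and 0, 2 and 4, and 0 and 7 with total-count scaling. The share of members called lay near the background in each comparison. The median log2 fold change of the members was 0.96, 0.39 and -0.87 in the 3 comparisons, beside -0.04, -0.11 and -0.07 over the genes tested. The first 2 comparisons share the mESC-2i libraries, and each other pair of comparisons shares a group too.

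**Figure D1:**
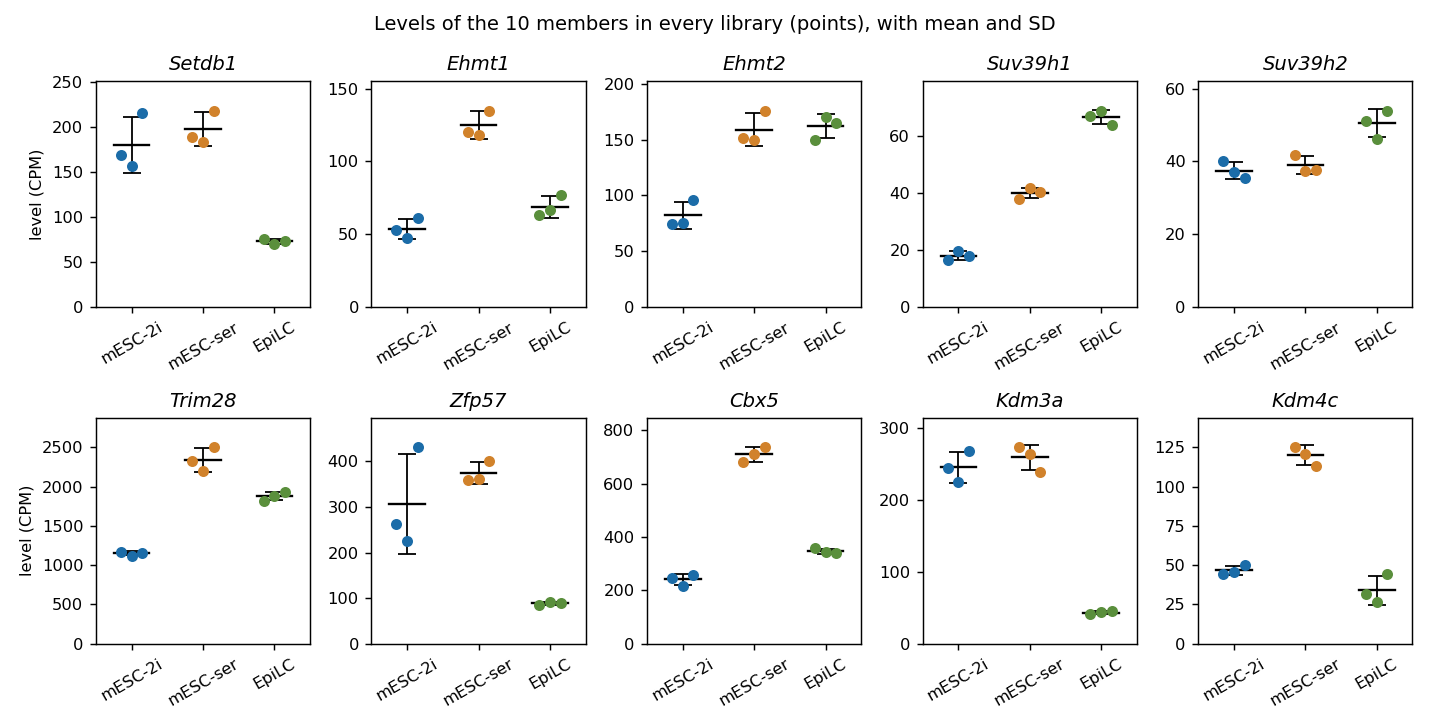
Level of each member in every library, in TMM-scaled CPM on linear axes from 0, with points for the 9 libraries and black bars for the mean and SD of each group (n = 3). Setdb1, Zfp57 and Kdm3a are lowest in EpiLC, Suv39h1 is highest there, and Ehmt1, Trim28, Cbx5 and Kdm4c are highest in mESC-ser.

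Among the methyltransferases, Setdb1 (ENSMUSG00000015697; mm10 chromosome 3, 95323525 to 95357202, minus strand), the enzyme recruited by KAP1, was low in EpiLC. It stood at 169, 156 and 215 CPM in replicates 1 to 3 of mESC-2i, at 189, 183 and 218 for mESC-ser and at 75.4, 70.0 and 73.3 for EpiLC. All 3 EpiLC libraries lay below the other 6, while the mESC groups overlapped. The log2 fold change was -1.31 (SE 0.13, edgeR adjusted p = 3.88e-06) in EpiLC against mESC-2i, and with the length and GC offsets it was -0.72. Against mESC-ser it was -1.36 (SE 0.09, edgeR adjusted p = 1.89e-10), and -0.70 with the offsets. Between the mESC groups it was 0.10 (SE 0.13), not called, and -0.02 with the offsets. Setdb1 shares 75 bp of exon with Cers2 and 249 bp with Gm37500, both on the opposite strand.

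Ehmt1 (ENSMUSG00000036893; chromosome 2, 24789928 to 24919614, minus strand) and Ehmt2 (ENSMUSG00000013787; chromosome 17, 34898469 to 34914052, plus strand) were both higher in serum. Ehmt1 was at 52.8, 47.5 and 60.9 CPM for mESC-2i, 120, 118 and 135 for mESC-ser and 62.9, 66.7 and 77.2 for EpiLC. The 3 groups of Ehmt1 did not overlap, a separation that 70.6%, 81.8% and 85.7% of tested genes also showed in the respective pairs. It rose by 1.19 (SE 0.12, edgeR adjusted p = 1.04e-05) on the log2 scale from mESC-2i to mESC-ser. The EpiLC value was 0.36 (SE 0.12) above mESC-2i, past the adjusted p but short of the fold threshold. It was called at 1.01 with the offsets and stood at 0.02 with total-count scaling. It was called lower in EpiLC than in mESC-ser at -0.78 (SE 0.09, edgeR adjusted p = 4.9e-07), but stood at -0.12 and was not called with the offsets. The call for Ehmt1 in EpiLC against mESC-ser thus did not hold in the offset fit, in which the library scaling also differed.

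Ehmt2 was at 74.8, 75.3 and 95.9 CPM for mESC-2i, 151, 150 and 176 for mESC-ser and 150, 170 and 165 for EpiLC. The mESC-ser and EpiLC libraries overlapped and lay above the mESC-2i libraries. It rose by 0.93 (SE 0.12, edgeR adjusted p = 8.77e-05) in mESC-ser and by 0.98 (SE 0.12, edgeR adjusted p = 1.96e-05) in EpiLC against mESC-2i, and the offsets gave 0.97 and 1.16. The second was 0.64 with total-count scaling. EpiLC against mESC-ser was at 0.09 (SE 0.08) and not called. That difference was 0.20 with the offsets and -0.25 with total-count scaling, so its direction rests on the scaling.

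Suv39h1 (ENSMUSG00000039231, chromosome X, 8061171 to 8074760, minus strand) was lowest in mESC-2i and highest in EpiLC. It was at 16.4, 19.8 and 18.1 CPM for mESC-2i, 38.1, 41.8 and 40.4 for mESC-ser and 67.3, 69.1 and 64.0 for EpiLC, with no overlap between groups. The rise was 1.12 (SE 0.12, edgeR adjusted p = 1.45e-05) in mESC-ser and 1.88 (SE 0.11, edgeR adjusted p = 9.18e-08) in EpiLC against mESC-2i. EpiLC exceeded mESC-ser by 0.81 (SE 0.08, edgeR adjusted p = 1.23e-07). With the offsets the 3 values were 1.22, 2.35 and 1.13. With total-count scaling the last was 0.47, short of the fold threshold. Suv39h1 shares 767 bp of exon with Gm14820 on the opposite strand, whose own level fell from 21.1 CPM (mESC-2i) to 7.17 (mESC-ser) and 0.9 (EpiLC), the opposite order. The strand setting of the counting was not stated, so reads in the shared part cannot be assigned.

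Suv39h2 (ENSMUSG00000026646; chromosome 2, 3455815 to 3475031, minus strand), the paralog, was not called in any comparison of the main fit. It was at 40.1, 37.0 and 35.5 CPM for mESC-2i, 41.7, 37.5 and 37.6 for mESC-ser and 51.1, 46.3 and 54.0 for EpiLC. The EpiLC libraries lay above the other 6. The log2 fold changes of 0.43 (SE 0.10, edgeR adjusted p = 0.00275) against mESC-2i and 0.44 (SE 0.09, edgeR adjusted p = 0.000317) against mESC-ser passed the adjusted p but not the fold threshold. With the offsets both were called, at 0.79 and 0.94, and with total-count scaling they were 0.09 and 0.10. Between the mESC groups the value was 0.03 (SE 0.11), and its sign turned with the offsets (-0.15) and with total-count scaling (-0.01). Suv39h2 shares 357 bp of exon with Dclre1c on the opposite strand.

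Trim28 (ENSMUSG00000005566; chromosome 7, 12999114 to 13031035, plus strand), the hub of the pathway, was the most abundant member per length in each state. Its level was 1170, 1120 and 1160 CPM for mESC-2i, 2320, 2200 and 2500 for mESC-ser and 1820, 1880 and 1930 for EpiLC. The groups did not overlap, with mESC-2i lowest. It rose by 1.00 (SE 0.10, edgeR adjusted p = 1.31e-05) in mESC-ser and by 0.70 (SE 0.10, edgeR adjusted p = 5.67e-05) in EpiLC, and with the offsets by 1.26 and 0.91. The rise in EpiLC was 0.37 and not called with total-count scaling. EpiLC against mESC-ser was at -0.25 (SE 0.08, edgeR adjusted p = 0.00738), short of the fold threshold, and with total-count scaling it was called lower at -0.59.

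Zfp57 (ENSMUSG00000036036; chromosome 17, 37001163 to 37010635, plus strand) was lowest in EpiLC. It was at 262, 225 and 431 CPM for mESC-2i, 359, 361 and 401 for mESC-ser and 84.8, 91.5 and 89.4 for EpiLC. The EpiLC libraries lay below the other 6, and replicate 3 of mESC-2i stood well above its other 2 replicates. The fall in EpiLC was -1.79 (SE 0.21, edgeR adjusted p = 1.67e-05) against mESC-2i and -2.005 (SE 0.08, edgeR adjusted p = 9.58e-13) against mESC-ser, and the offsets gave -1.49 and -1.99. Between the mESC groups it was at 0.26 (SE 0.21, edgeR adjusted p = 0.282) and not called. With the replicate number as a block it was 0.32 (edgeR adjusted p = 0.0465), past the adjusted p but still short of the fold threshold. Without replicate 3 of mESC-2i that value was 0.60 and called (edgeR adjusted p = 9.24e-05), and with the offsets it was 0.51 and called (edgeR adjusted p = 0.0388).

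Cbx5 (ENSMUSG00000009575; chromosome 15, 103191544 to 103239816, minus strand) encodes HP1 alpha, which binds methylated H3K9. It was at 245, 218 and 259 CPM for mESC-2i, 681, 712 and 737 for mESC-ser and 358, 343 and 341 for EpiLC. The groups did not overlap and mESC-ser was highest. The rise was 1.53 (SE 0.11, edgeR adjusted p = 8.69e-07) in mESC-ser and 0.53 (SE 0.10, edgeR adjusted p = 0.000443) in EpiLC against mESC-2i, and 1.01 and 1.19 with the offsets. The second was not called with total-count scaling (0.19) or with a minimum of 10 counts in every library (0.47). EpiLC against mESC-ser was at -0.96 (SE 0.08, edgeR adjusted p = 3.71e-09) in the main fit. With the offsets this turned to 0.17, so the order of mESC-ser and EpiLC depended on the fit. Cbx5 is the longest member, at 9006 bp, and the cause of the turn was not tested.

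The demethylase Kdm3a (ENSMUSG00000053470; chromosome 6, 71588972 to 71632990, minus strand) had the widest range of the members. It was at 244, 224 and 268 CPM for mESC-2i, 273, 264 and 239 for mESC-ser and 41.2, 43.7 and 45.3 for EpiLC. The mESC groups overlapped, and the EpiLC libraries lay far below both. It fell by 2.501 on the log2 scale (SE 0.10, edgeR adjusted p = 1.12e-08) against mESC-2i and fell by 2.506 (SE 0.09, edgeR adjusted p = 2.93e-13) against mESC-ser, a 5.66-fold and a 5.68-fold difference. With the offsets the values were -1.87 and -1.55, both called. Between the mESC groups it was at 0.05 (SE 0.11), and at -0.33 with the offsets, neither called. Among 14387 other genes that passed the filter in each comparison, the 5 nearest to Kdm3a in centred log2 CPM over the 9 libraries were Elf2, Galnt1, Tmem64, Sgtb and Spg11, at distances of 0.318 to 0.388.

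Kdm4c (ENSMUSG00000028397; chromosome 4, 74242497 to 74405860, plus strand) was highest in serum. It was at 44.3, 45.8 and 49.8 CPM for mESC-2i, 125, 121 and 113 for mESC-ser and 31.4, 26.4 and 44.4 for EpiLC. The mESC-ser libraries lay above the other 6, and replicate 3 of EpiLC reached the mESC-2i range. The rise in mESC-ser was 1.33 (SE 0.10, edgeR adjusted p = 1.93e-06), and 1.02 with the offsets. EpiLC against mESC-ser was at -1.75 (SE 0.14, edgeR adjusted p = 2.93e-09), and at -0.99 with the offsets. EpiLC against mESC-2i was at -0.46 (SE 0.17, edgeR adjusted p = 0.0264), short of the fold threshold. That value was called without replicate 3 of EpiLC (-0.68), with total-count scaling (-0.80) and with a minimum of 10 counts in every library (-0.52), and stood at 0.03 with the offsets.

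**Figure D2:**
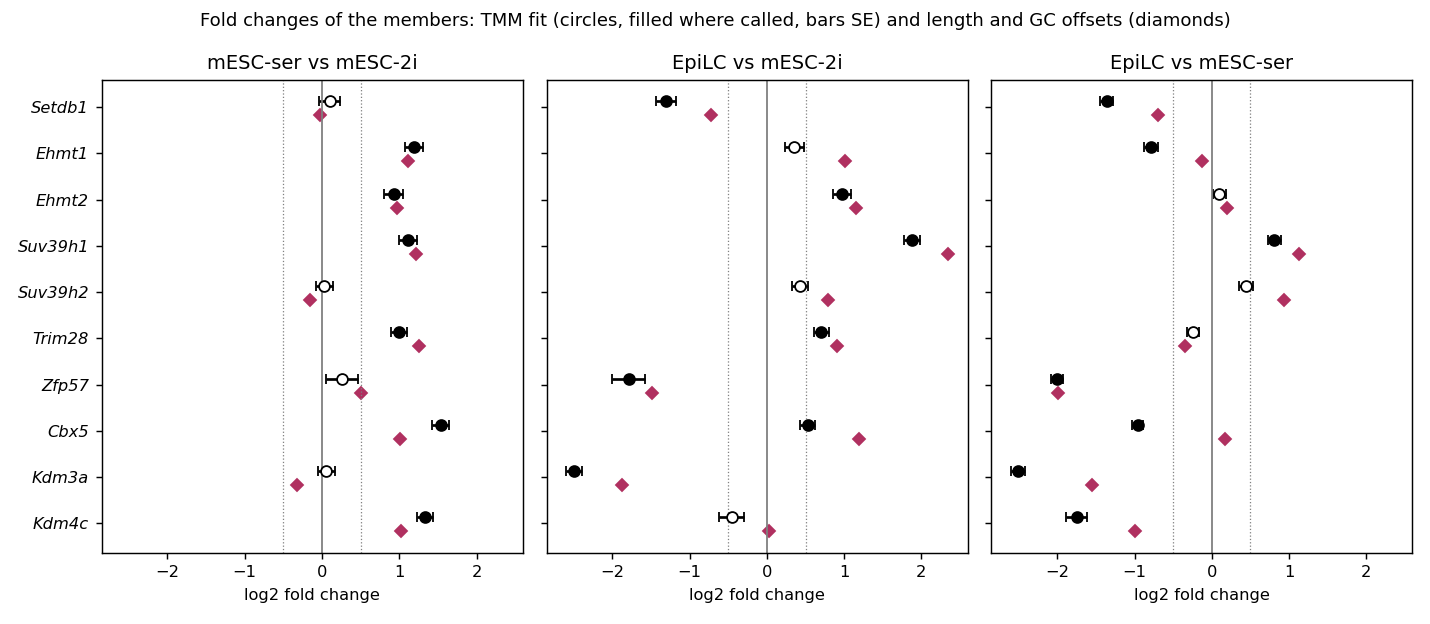
Log2 fold change of each member in the 3 comparisons. Circles with SE bars are from the TMM fit, filled where called, diamonds are from the fit with length and GC offsets, and dotted lines mark a log2 fold change of 0.5 in either direction. In EpiLC against mESC-ser the diamond of Cbx5 lies across 0 from its circle (0.17 against -0.96), while those of Kdm3a, Zfp57 and Setdb1 stay on the lower side.

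To compare genes with each other, levels were set per exonic length as RPKM (reads per kilobase, scaled to library size). In mESC-2i, Trim28 was at 277 ± 5.81 RPKM (SD, n = 3) and Zfp57 at 80.8 ± 29.0 RPKM. Kdm3a (29.8 ± 2.65), Cbx5 (26.7 ± 2.30) and Setdb1 (26.3 ± 4.57) came next and lay within their spreads of each other. Ehmt2 followed at 14.9 ± 2.19 RPKM, then Suv39h2, Kdm4c and Ehmt1 between 6.62 and 8.51 RPKM, and Suv39h1 was last at 3.44 ± 0.319 RPKM. In mESC-ser, Trim28 (562 ± 36.7 RPKM), Zfp57 (98.7 ± 6.37 RPKM) and Cbx5 (78.8 ± 3.15 RPKM) led, and Suv39h1 was again last at 7.61 ± 0.355 RPKM. In EpiLC, Trim28 (451 ± 13.4 RPKM) was followed by Cbx5 (38.6 ± 1.02), Ehmt2 (29.5 ± 1.94) and Zfp57 (23.4 ± 0.899). Suv39h1 stood at 12.7 ± 0.490 RPKM in EpiLC, beside Suv39h2 (11.4 ± 0.880) and above Setdb1 (10.6 ± 0.397), while Kdm3a (5.27 ± 0.255) and Kdm4c (5.86 ± 1.60) were last and lay within their spreads of each other.

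Ratios between related enzymes were taken within each library, where the scaling of the library cancels. The log2 RPKM ratio of Suv39h1 to Suv39h2 was -1.55, -1.16 and -1.23 for mESC-2i, -0.39, -0.10 and -0.15 for mESC-ser and 0.14, 0.32 and -0.01 for EpiLC. On the linear scale the mean ratios were 0.403, 0.861 and 1.11. The ratio of Ehmt1 to Ehmt2 was -1.17 ± 0.0900 (SD, n = 3) for mESC-2i, -0.92 ± 0.0286 for mESC-ser and -1.80 ± 0.127 for EpiLC, so Ehmt2 stayed the more abundant partner and the gap was widest in EpiLC. The ratio of Setdb1 to the sum of Suv39h1 and Suv39h2 was 1.12 ± 0.289 for mESC-2i, 0.80 ± 0.152 for mESC-ser and -1.18 ± 0.0317 for EpiLC. Setdb1 exceeded the pair 2.18-fold in mESC-2i and made up 0.441 of it in EpiLC.

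The ratio of Cbx5 to the sum of Cbx1 and Cbx3 (HP1 beta and gamma) was -1.03 ± 0.110 for mESC-2i, 0.04 ± 0.109 for mESC-ser and -1.19 ± 0.0401 for EpiLC. In 10 of the 12 ratio comparisons the groups were separate. The exceptions were Cbx5 in EpiLC against mESC-2i (difference -0.16) and Setdb1 in mESC-ser against mESC-2i (difference -0.32). With 3 against 3 libraries the exact two-sided permutation test cannot go below 0.1, which was its value in these 10, with an adjusted p of 0.12 over the 12 (0.2 in the others). No ratio could therefore pass the threshold by this test. The ratios carry no correction for the length trend: Ehmt1 has 8116 bp of exon and Ehmt2 5489 bp, Setdb1 has 6853 bp, Suv39h1 and Suv39h2 have 5270 and 4410 bp, and Cbx5 has 9006 bp beside 4273 bp for Cbx1 and 5992 bp for Cbx3. With the offsets the log2 fold change of Ehmt1 minus that of Ehmt2 was -0.15 against mESC-2i and -0.32 against mESC-ser in EpiLC, in place of -0.62 and -0.87 in the main fit, so most of the Ehmt1 to Ehmt2 shift in EpiLC was not kept. That of Suv39h1 minus Suv39h2 was 1.37, 1.56 and 0.19 in the 3 comparisons with the offsets.

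**Figure D3:**
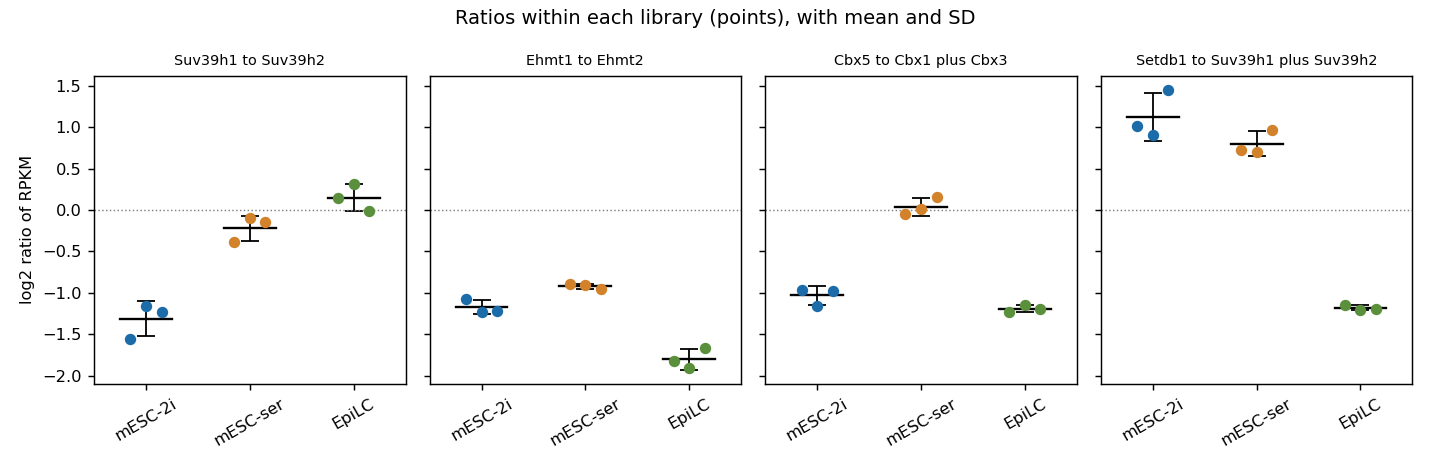
Log2 ratio of RPKM within each library for 4 pairs of genes or gene sums, with points for libraries, bars for mean and SD (n = 3), and a dotted line where both sides are equal. The Setdb1 ratio falls from a mean of 1.12 in mESC-2i to -1.18 in EpiLC while the Suv39h1 ratio climbs from -1.31 to 0.15.

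The members were set beside a wider list of 48 genes of the pathway, which holds them. In mESC-ser against mESC-2i, 28 of the 47 that were tested rose and 1 fell (61.7% called, beside 56.2% of all tested genes), with a median log2 fold change of 0.67. In EpiLC against mESC-2i, 11 of 46 were called higher and 22 lower (71.7% beside 69.8%), with a median of -0.45. In EpiLC against mESC-ser, 5 of 47 were called higher and 33 lower (80.9% beside 73.3%), with a median of -1.13. With the offsets the split was 24 higher and 1 lower, 19 higher and 15 lower, and 9 higher and 23 lower. The second comparison so turned from mostly lower to mostly higher.

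The demethylases include both members of this role. Kdm4d, with at most 5 counts in a library, was not tested. Of 10 tested, 10 were called lower in EpiLC against mESC-ser and 8 against mESC-2i, and 3 were called higher in mESC-ser against mESC-2i. The shares over all tested genes in these directions were 37.8%, 37.8% and 25.9%. The median log2 fold changes of the 10 were -1.75, -1.17 and 0.15. Beside Kdm3a, its paralog Kdm3b fell by 2.35 (SE 0.12) against mESC-2i and by 2.47 (SE 0.10) against mESC-ser, and another relative, Jmjd1c, was at 3.03 (SE 0.13) in mESC-ser against mESC-2i and at -2.80 (SE 0.09) in EpiLC against mESC-ser. The KDM4 paralogs Kdm4a and Kdm4b were at -1.15 and -1.09 against mESC-2i and at -1.24 and -0.75 against mESC-ser. The PHD-finger demethylases Phf2, Phf8 and Kdm7a were at -1.57, -1.32 and -1.19 against mESC-2i and at -1.04, -1.75 and -2.22 against mESC-ser. Kdm1a (LSD1) was at -0.57 and -0.63, and was not called in either comparison with the offsets (-0.11 and -0.22), while total-count scaling gave -0.91 and -0.97. With the offsets 9 of the 10 kept their call and direction against mESC-ser at smaller sizes, among them Kdm3b (-1.26), Jmjd1c (-1.13), Kdm7a (-0.79) and Phf8 (-0.79). Against mESC-2i Kdm3b was at -1.5, Kdm4a at -0.70 and Phf8 at -0.62. Kdm3b shares exon sequence with Gm26538 on the opposite strand. Against mESC-2i Kdm7a (-0.43) also lost its call, and Kdm7a in mESC-ser against mESC-2i (1.07) was at 0.37 and not called.

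Of the other methyltransferases, Prdm2 was at 1.48 (SE 0.13) in mESC-ser against mESC-2i and at -1.63 (SE 0.16) and -3.07 (SE 0.11) in EpiLC against mESC-2i and mESC-ser, the former -1.01 with the offsets. Mecom rose by 2.85 (SE 0.30) in mESC-ser from 4 to 9 counts per mESC-2i library, was at -1.97 in EpiLC against mESC-ser (-0.71 with the offsets), and was not tested against mESC-2i. Setdb2 fell in EpiLC by 1.45 and 1.27. Among partners of the methyltransferases, Atf7ip, which stabilises SETDB1, and its relative Atf7ip2 rose by 1.52 (0.73 with the offsets) and 1.44 in mESC-ser, as did Zfp644, a partner of G9a and GLP, by 1.14 (0.39 with the offsets, not called). In EpiLC against mESC-ser Atf7ip, Atf7ip2, Zfp644 and Wiz were called lower at -1.13, -0.62, -1.40 and -0.73. With the offsets the first 3 turned to 0.57, 0.22 and 0.13, and Wiz stood at -0.11. Atf7ip has 20726 bp of exon, Zfp644 14001 bp, Wiz 9242 bp and Atf7ip2 4843 bp. The cause of these changes was not tested. Atf7ip2 was also called higher in EpiLC against mESC-2i at 0.77, which was 1.23 with the offsets and 0.44, not called, with total-count scaling.

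The role of KAP1 and its zinc finger proteins held 10 genes, among them Smarcad1, Morc3 and Resf1, which are not KRAB zinc finger proteins. Of the 10 genes, 7 were called higher in mESC-ser against mESC-2i, and 7 were called lower in EpiLC against either mESC group. Smarcad1, Morc3 and Resf1 were among the called genes each time. The shares over all tested genes were 25.9% higher and 37.8% lower. Zfp445, which acts beside ZFP57 at imprinted regions, had the largest fall, with 128, 142 and 338 counts in mESC-2i, 1047, 826 and 1352 counts in mESC-ser and 11, 9 and 14 counts in EpiLC. Its log2 fold change was -3.71 (SE 0.37) against mESC-2i and -5.64 (SE 0.15) against mESC-ser, with -3.11 and -4.78 under the offsets, after 1.97 (SE 0.23) between the mESC groups. Zfp568 and Morc3 were at 1.34 and 0.73 in mESC-ser, at -0.71 and -1.45 in EpiLC against mESC-2i and at -2.003 and -2.13 against mESC-ser. With the offsets Zfp568 lost its call in EpiLC against mESC-2i (-0.10) and Morc3 in mESC-ser (0.46), and Zfp568 was at -1.33 against mESC-ser. Zfp708, most of whose exons it shares with Gm28557 on the same strand, was at -1.10 and -1.13 in EpiLC (the latter -0.72 with the offsets). Zfp809, which silences retroviruses, was called in mESC-ser against mESC-2i alone (0.52), a call lost with upper-quartile (0.49) and total-count scaling (0.48). Zfp932 rose in EpiLC by 0.91 and 0.71, and by 1.18 and 1.23 with the offsets. With total-count scaling the values were 0.58 and 0.37, the second not called. Smarcad1 and Resf1, which work with KAP1 or SETDB1, were at -0.74 and -0.63 in EpiLC against mESC-2i. They turned to 0.09 and 0.08 with the offsets. Resf1 was at -0.96 there with total-count scaling. Against mESC-ser they were at -2.03 and -2.22, and with the offsets at -0.40 (not called) and -0.93. In mESC-ser against mESC-2i they were at 1.34 and 1.64, and with the offsets at 0.50 (not called) and 1.00.

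Of the 7 readers, 3 were called higher in mESC-ser against mESC-2i, 2 were called higher and 2 lower in EpiLC against mESC-2i, and 1 was called higher and 3 lower in EpiLC against mESC-ser. The shares called were 42.9%, 57.1% and 57.1%, below the 56.2%, 69.8% and 73.3% of all tested genes. Cbx1 rose by 0.66 in mESC-ser and by 0.95 (0.62 with total-count scaling) in EpiLC against mESC-2i, while Cbx3 was not called in any comparison. Cdyl and Cdyl2, chromodomain proteins, fell in EpiLC by 1.18 and 2.21 against mESC-2i and by 1.08 and 2.71 against mESC-ser, and Cdyl2 was at 0.55 in mESC-ser (0.93 with the offsets). Uhrf1, which links H3K9 methylation to DNA methylation upkeep, was at 0.54 in EpiLC against mESC-ser, a call lost with total-count scaling (0.20), with no filter (0.46), with at least 10 counts in every library (0.47) and in the fit of 9 libraries (0.47). Mphosph8, which is also a HUSH subunit, was not called in any comparison.

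Beside Mphosph8, the 4 other listed subunits or partners of the HUSH silencing complex were called higher in mESC-ser against mESC-2i. Over all tested genes the share called higher there was 25.9%, and 3 of the 4 kept the call with the offsets. Tasor2 had the largest rise (3.62, SE 0.12) and stood at 0.69 and -2.89 in EpiLC. These were 1.5 and -1.33 with the offsets, and the 0.69 was 0.35 and not called with total-count scaling. Pphln1 was higher by 0.86 in mESC-ser and by 2.37 (SE 0.10) in EpiLC against mESC-2i, and by 1.55 in EpiLC against mESC-ser. Tasor was at 1.14, -0.68 and -1.77, but at 0.13, 0.28 and 0.20 with the offsets, and Morc2a was called at 0.67 in mESC-ser and -0.71 in EpiLC against mESC-ser, the latter lost with the offsets (-0.13). Tasor without replicate 3 of mESC-2i was at -0.35 and not called in EpiLC against mESC-2i. Of the histone chaperones and their partners, Atrx was at 1.94, -1.39 and -3.28 in the 3 comparisons. With the offsets Atrx was at 0.97, -0.38 (not called) and -1.31. Chaf1b, a subunit of the replication-coupled chaperone CAF-1, ran the other way at -0.83, 0.74 and 1.62, with the second at 0.40 and not called with total-count scaling and 1.12 with the offsets. Its partner Chaf1a was at 0.72 in mESC-ser, and Daxx was at 0.55 and 0.52 against mESC-2i in mESC-ser and EpiLC, the former 0.89 with the offsets. The latter call was lost with total-count (0.18) and upper-quartile scaling (0.50), with no filter (0.50) and with at least 10 counts in every library (0.46).

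**Figure D4:**
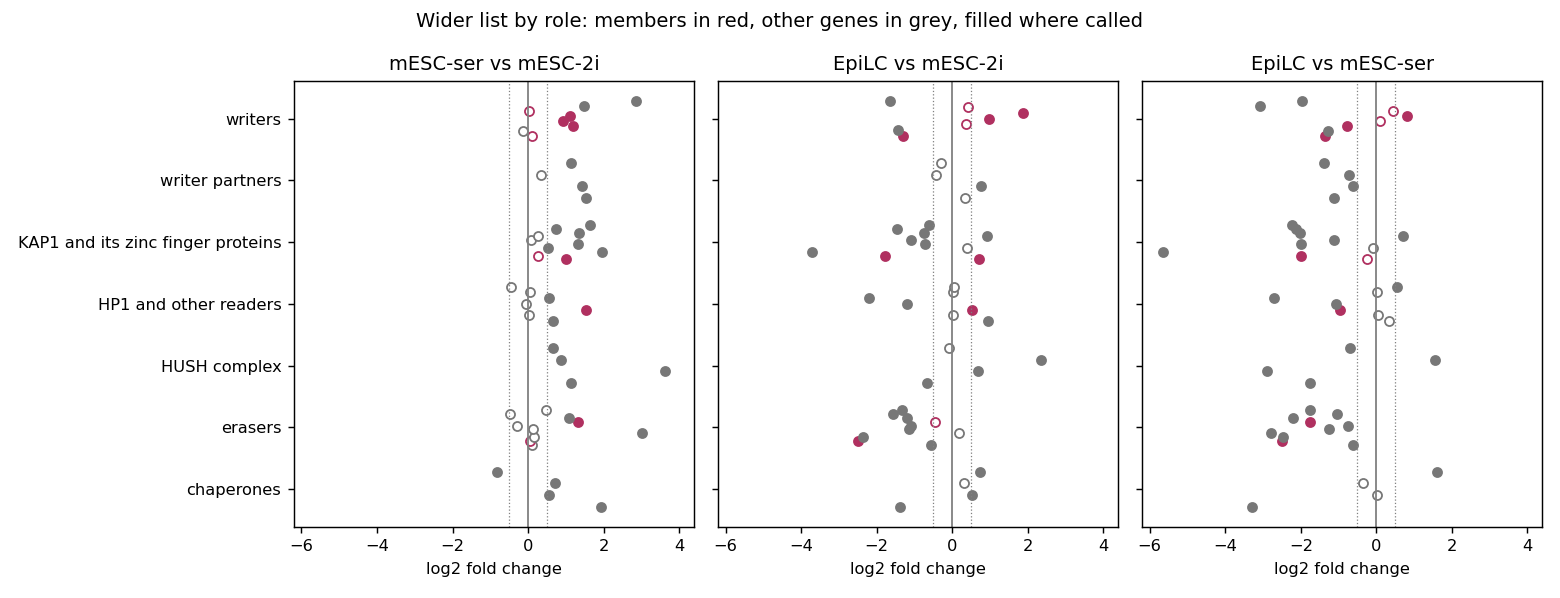
Log2 fold change of each tested gene of the wider list by role in the 3 comparisons, from the TMM fit, with members in red, other genes in grey, filled points for calls and dotted lines at a log2 fold change of 0.5 in either direction. Demethylases lie below 0 in EpiLC against mESC-ser, where 10 of 10 were called lower.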

How the data were processed

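The members and gene lists were chosen with earlier results of these data known. RNA was poly-A enriched and sequenced as 50 bp single-end reads. The authors trimmed reads with TrimGalore 0.6.6, aligned them to mm10 with HISAT2 2.2.1 and counted them per gene with featureCounts of Subread 2.0.1. The deposited values are raw counts per Ensembl gene. The annotation release, strand setting and handling of multi-mapping reads are not given in the sources used here. Serum columns were matched to samples by the initials of serum and LIF. Symbols, positions and exonic length came from GENCODE M21 (GRCm38, the assembly of mm10), which matched 95.1% of the identifiers.

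Pairwise fits of 6 libraries used edgeR 4.0.16 (R 4.3.3, limma 3.58.1), filterByExpr, TMM and the quasi-likelihood F-test, and p-values were adjusted over all tested genes by Benjamini-Hochberg. SE was taken from the F statistic. CPM and RPKM used TMM factors over 9 libraries. Per-library offsets were predicted from GC content and log exonic length by natural splines with 5 degrees of freedom each. They replaced the TMM factors in that fit. The median log2 fold change over tested genes was 0.02, 0.13 and 0.1 in the 3 comparisons with the offsets, in place of -0.04, -0.11 and -0.07. DESeq2 1.42.0 was an alternative. Only the main edgeR fit was tested on simulated counts, which held no length trend. The offset fit, the ratios and the permutation test were not simulated. Named pathway genes are the members and the wider-list genes called at least once. Cbx3 and Mphosph8, not called in any comparison, and Kdm4d, not tested, are named as well. Same-numbered libraries of mESC-ser and mESC-2i correlated at 0.170 to 0.403 in their deviations from group means, and the others at -0.339 to 0.188. These ranges overlapped and no label states a pairing, so whether the numbers pair these groups was not settled. The value of 0.403 was that of the replicate 3 libraries. Each replicate 3 was at -0.339 to -0.21 with replicates 1 and 2 of the other group. Printed values are from fits without the replicate block, which was an alternative. No replicates agreed within sampling noise (chi-square per degree of freedom 1.66 to 30.5). The labels call the samples biological replicates.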

Additional observations from a re-analysis of the deposited data

How the results depend on the processing

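Replicate number as a block left the calls of the members at 6, 7 and 7 in the 3 comparisons and kept each call of the other listed genes. The adjusted p of Zfp57 in mESC-ser against mESC-2i passed with it (edgeR adjusted p = 0.0465). For EpiLC with mESC-2i and with mESC-ser, same-numbered libraries correlated at 0.0138 to 0.157 and 0.0212 to 0.0467. The others were at -0.14 to 0.00853 and -0.0545 to 0.0202, in each case below the same-numbered range. The values were small and no label states a pairing, so it was left unsettled for these groups too. With an absolute log2 fold change over 1, 4 members were called in EpiLC against mESC-2i and 4 with mESC-ser as the base, 18 and 19 of the wider list were called in mESC-ser and EpiLC against mESC-2i, and 4935 genes in all in mESC-ser against mESC-2i, where 8843 were called otherwise. Total-count scaling moved the share of higher calls from 45.9% to 33.7% (EpiLC, mESC-2i as base) and from 48.4% to 37.4% (EpiLC, mESC-ser as base), with medians over tested genes of -0.45 and -0.41. Signs that turned were those of Setdb1 (-0.02), Suv39h2 (-0.15) and Kdm3a (-0.33) in mESC-ser against mESC-2i, Kdm4c (0.03), Smarcad1 (0.09), Resf1 (0.08) and Tasor (0.28) in EpiLC against mESC-2i, and Cbx5 (0.17), Atf7ip (0.57), Atf7ip2 (0.22), Zfp644 (0.13) and Tasor (0.20) in EpiLC against mESC-ser, each with the length and GC offsets. Suv39h2 in mESC-ser against mESC-2i was at 0.00 with upper-quartile and -0.01 with total-count scaling, and Ehmt2 in EpiLC against mESC-ser at -0.25 with total-count scaling. The causes were not tested. Leaving out 1 replicate gave 6 to 7, 7 to 8 and 7 to 8 called members. Over all genes it gave 8581 to 9391, 10608 to 11059 and 11183 to 11446 calls. In mESC-ser against mESC-2i it gave 0.00 to 0.26 for Setdb1 and -0.01 to 0.13 for Kdm3a. Zfp809 (0.44) and Cdyl2 (0.47) lost their calls in mESC-ser against mESC-2i without replicate 2 of mESC-2i, Cdyl2 (0.48) also without replicate 3 of mESC-ser, Daxx (0.49) in EpiLC against mESC-2i without replicate 3 of EpiLC, and Uhrf1 (0.49) in EpiLC against mESC-ser without replicate 2 of mESC-ser. Suv39h2 gained a call (0.51) in EpiLC against mESC-ser without replicate 2 of EpiLC. RLE scaling, DESeq2 and the fit of 9 libraries gave 6, 7 and 7 called members, the offsets 7, 9 and 6, and total-count scaling 6, 6 and 7.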
